A study of Mus musculus with 32 samples.

Results

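The striatal transcriptome of zQ175:Msh3-/- mice was compared with that of zQ175 mice, which carry the same Huntington's disease knock-in but an intact Msh3 gene. The comparison held 16 of the 32 mice in the series, chosen by genotype label: 8 zQ175:Msh3-/- mice (5 males and 3 females) and 8 zQ175 mice (4 males and 4 females). All were 6 months old, on a C57BL/6J background, and bred as littermates. The zQ175 allele places an expanded CAG repeat in the mouse huntingtin gene (Htt), so both groups carried mutant huntingtin. The paper reports a shorter mean CAG repeat in early ear samples of zQ175:Msh3-/- mice than of zQ175 mice. The Msh3 allele came from CRISPR guides against exons 3 and 8 and is a germline deletion, present in every cell type and throughout life. The 8 wild-type and 8 Msh3-/- mice (4 males and 4 females each) served as the reference for the same gene loss without the knock-in. Libraries were made from polyadenylated RNA of whole dissected striatum, and the 16 libraries held between 12359347 and 25030335 gene counts. Each library came from a separate mouse.

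MSH3 is the defining subunit of MutSβ, the mismatch repair complex that recognises small loops of extruded DNA. On a long CAG tract MutSβ is known to drive the gain of further repeats during life, and the spiny projection neurons of the striatum are the cells in which this somatic expansion is best known. These neurons make up most of the striatum, divide into direct pathway cells (dopamine receptor Drd1, substance P precursor Tac1) and indirect pathway cells (dopamine receptor Drd2, enkephalin precursor Penk), and lose the transcripts of their identity genes in Huntington's disease models. The comparison addressed whether the absence of MSH3 altered the striatal transcripts of mice that carry the knock-in.

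Msh3 was the only gene that passed the test, and it fell. Its level, in CPM (counts scaled to library size and composition), ran from 22.8 to 27.4 in zQ175 mice with a median of 24.1, and from 11.1 to 14.2 in zQ175:Msh3-/- mice with a median of 12.8. The 2 groups did not overlap. The log2 fold change was -0.92 (SE 0.058, 95% interval -1.04 to -0.81), which left 52.7% of the zQ175 level (edgeR quasi-likelihood test, adjusted p = 1.42e-13). An exact two-sided permutation test over the 16 mice gave p = 0.000155, the smallest that 12870 arrangements allow. Without the knock-in, Msh3 ran from 22.9 to 27.5 CPM in wild-type mice and from 10.4 to 13.6 CPM in Msh3-/- mice, a log2 fold change of -1.06, and the 2 falls were not shown to differ (interaction, edgeR unadjusted p = 0.115). On the TPM scale the log2 difference was -0.57 (limma, log2(TPM + 0.1)). The counts are sums over the whole gene, so transcript from outside the deletion was counted in the knockout mice. Msh3 lies on chromosome 13 of GRCm38 (92211872 to 92355003, minus strand). In its annotated transcript Msh3-201, exons 3 to 8 (exon 3 at 92351231 to 92351451, exon 8 at 92342246 to 92342412) hold 958 of the 3937 bases, or 24.3%.

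**Figure D1:**
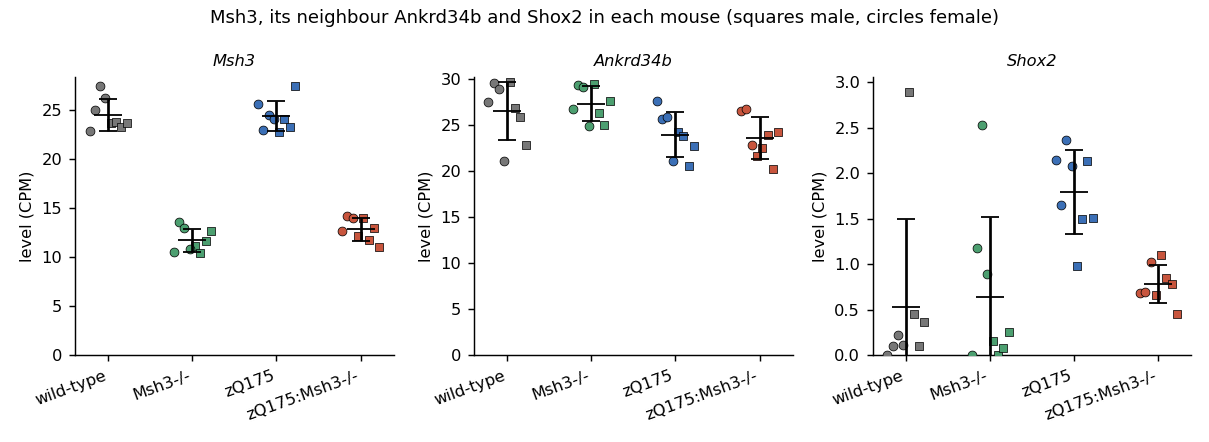
Level in CPM (vertical axes, from 0) of Msh3, Ankrd34b and Shox2 in each of the 32 mice by genotype, with squares for males, circles for females and bars for mean ± SD (bars of Shox2 in mice without the knock-in are cut at 0). Msh3 separates the mice with the Msh3 deletion from those without it, with no overlap. Ankrd34b overlaps in all genotypes, and Shox2 overlaps between the 2 knock-in groups only between 0.98 and 1.1 CPM.

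The genes beside Msh3 were examined because a deletion can carry neighbouring sequence with it or disturb it. Ankrd34b ran from 20.6 to 27.7 CPM in zQ175 mice (median 24.1) and from 20.2 to 26.8 CPM in zQ175:Msh3-/- mice (median 23.4). The groups overlapped. Ankrd34b differed by -0.019 on the log2 scale (SE 0.068), and Fam151b, on the same side, by 0.14 (SE 0.096). On the other side Rasgrf2, an exchange factor for Ras, differed by 0.092 (SE 0.16), Zcchc9 by -0.030 (SE 0.073) and Ssbp2 by -0.031 (SE 0.043). Each of these genes overlapped between the groups, and none passed the test (edgeR adjusted p = 0.999 for each).

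Across 16610 genes tested, 1 gene, or 0.00602%, was called, with an adjusted p below 0.05 and a difference of 1.2-fold or more, and it was Msh3. The next smallest adjusted p was 0.999. At an unadjusted p under 0.05, 333 genes (2%) were higher and 281 (1.69%) were lower in zQ175:Msh3-/- mice, 3.7% in all. The median log2 fold change over all genes was 0.0026, and 51.7% of genes were above 0. Among the 14917 genes with a mean of at least 1 CPM, 5% of genes were below -0.12 and 5% above 0.18 on the log2 scale. In Msh3-/- against wild-type mice, 1 gene was also called (0.00602%), 5.09% of genes were at an unadjusted p under 0.05, and 50% were above 0. The called gene was again Msh3. The interaction of the 2 alleles called 0 genes in edgeR, with 4.44% of genes at an unadjusted p under 0.05, and 0 in DESeq2.

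How large an effect these data exclude was asked with an equivalence test, which calls a gene only where its difference is smaller than a stated margin (one-sided tests against both margins, adjusted over all genes). Of the 16610 genes, 14887 (89.6%) differed by less than 1.5-fold, 16296 (98.1%) by less than 2-fold and 10802 (65%) by less than 1.2-fold. These shares rest on the filter on low counts: with no filter 14319 of 32560 genes (44.0%) were within 1.5-fold, and with at least 10 counts in every mouse 13953 of 14288 (97.7%). The limit followed expression level. At 100 CPM or above, 97.3% of 2235 genes were held within 1.2-fold, and at 10 to 100 CPM 92.4% of 7920 genes. At 1 to 10 CPM the share fell to 27.4% of 4762 genes within 1.2-fold, but 87.8% were within 1.5-fold. Under 1 CPM no gene was held within 1.2-fold and 36.9% of 1693 were held within 1.5-fold. The largest fold inside the 95% interval of a typical gene, taken as the median, was 1.08-fold at 100 CPM or more, 1.1-fold at 10 to 100 CPM, 1.29-fold at 1 to 10 CPM and 1.66-fold under 1 CPM. For a second gene to have been called, the typical difference needed was 1.21-fold at 10 to 100 CPM and 2.61-fold under 1 CPM.

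**Figure D2:**
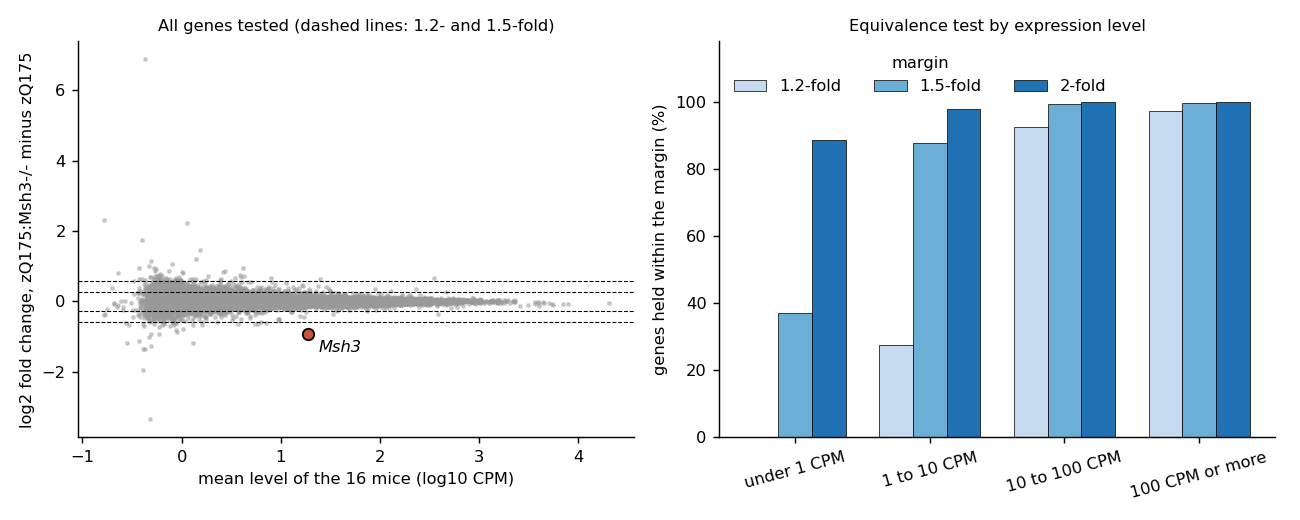
Left, log2 fold change (zQ175:Msh3-/- minus zQ175) of each gene against its mean level in the 16 mice (log10 CPM), with Msh3 in red; right, percent of genes that the equivalence test held within 1.2-, 1.5- and 2-fold, by mean level. Msh3 stands below genes of its level, and the scatter of the rest widens as the level falls.

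The genes nearest to the threshold were small in effect or low in level. The 6 higher genes with the smallest unadjusted p were Csnk1g1, A230077H06Rik, Lrrc18, Gm49012, Ebag9 and Nol4l, and the 6 lower genes were Fam181b, Fxr1, Gngt2, Lrrc1, Szrd1 and Ntan1, all with an edgeR adjusted p of 0.999. Csnk1g1, a casein kinase 1 isoform, ran from 35.8 to 43.8 CPM in zQ175 mice (median 40.4) and from 43.2 to 48.5 CPM in zQ175:Msh3-/- mice (median 45.1), a log2 difference of 0.16 (SE 0.042). Fam181b was lower, at 14.3 to 17.9 CPM (median 16.1) against 17.1 to 21.2 CPM (median 19.8), a log2 difference of -0.29 (SE 0.070). Fxr1, a relative of the fragile X protein, was at 62.2 to 67.4 CPM against 63.4 to 77.6 CPM, a log2 difference of -0.13 (SE 0.035). In all 3 the groups overlapped in part.

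Apart from Msh3, 1 gene of the 16610 had ranges that did not meet, and 0.012% of genes did so in all. It was A230077H06Rik, an annotated antisense transcript, at 1.88 to 2.66 CPM in zQ175 mice (median 2.38) and 2.66 to 4.19 CPM in zQ175:Msh3-/- mice (median 3.00). The ranges nearly touched. Its log2 difference was 0.41 (SE 0.11). The strand setting of the counts is not given, so whether its reads were kept apart from those of the opposite strand is not known. Lrrc18 (log2 difference 1.14, SE 0.31) and Gm49012, also an antisense transcript (0.87, SE 0.24), were below 1 CPM in every one of the 16 mice. Of these 12 genes, 8 had the same sign in Msh3-/- against wild-type mice, where 50% of all genes were above 0, and 1 of the 8 was at an unadjusted p under 0.05 there. That gene was Nol4l, with a log2 difference of 0.21 (SE 0.057) with the knock-in and 0.17 (edgeR unadjusted p = 0.00581) without it. Csnk1g1, Ebag9, Fam181b and Ntan1 had the opposite sign there, and the interaction called 0 genes. The 12 genes were picked by their p in 1 of the 2 comparisons that make up the interaction. Their unadjusted interaction p is therefore no test of a difference. Over the 14917 genes with a mean of at least 1 CPM, the log2 fold changes of the 2 comparisons had a Pearson correlation of 0.086.

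Spiny neuron genes overlapped between the knock-in groups, and those shared by both neuron types or of the indirect pathway lay below every wild-type mouse. Each list was summarised by a score, the mean over its genes of the log2 CPM of a mouse after the mean of each gene over the 32 mice was taken away. For 24 genes shared by both spiny neuron types, the score of zQ175 mice was 0.83 below that of wild-type mice (95% interval 0.72 to 0.95 below). That of zQ175:Msh3-/- mice differed from zQ175 by 0.036 (95% interval -0.060 to 0.13, from inversion of the exact permutation test). Of these 24 genes, 19 were above 0 and 5 below between the knock-in groups, where 51.7% of all genes were above 0. In Msh3-/- against wild-type mice 2 were above 0 and 22 below, with a score difference of -0.050 (-0.16 to 0.060). The score ran from -0.55 to -0.22 in zQ175 mice, from -0.43 to -0.25 in zQ175:Msh3-/- mice, and from 0.25 to 0.56 in wild-type mice, so both knock-in groups lay below every wild-type mouse. The 7 indirect pathway genes gave a difference of 0.027 (-0.076 to 0.13) against a zQ175 shift of -0.77, and the 8 direct pathway genes 0.015 (-0.099 to 0.13) against -0.24. The intervals of all 3 lists lay inside a common difference of 1.1-fold. No member was called by the edgeR test, and 1 of the 39 members, Ddit4l, was at an unadjusted p under 0.05, where 3.7% of all genes were.

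**Figure D3:**
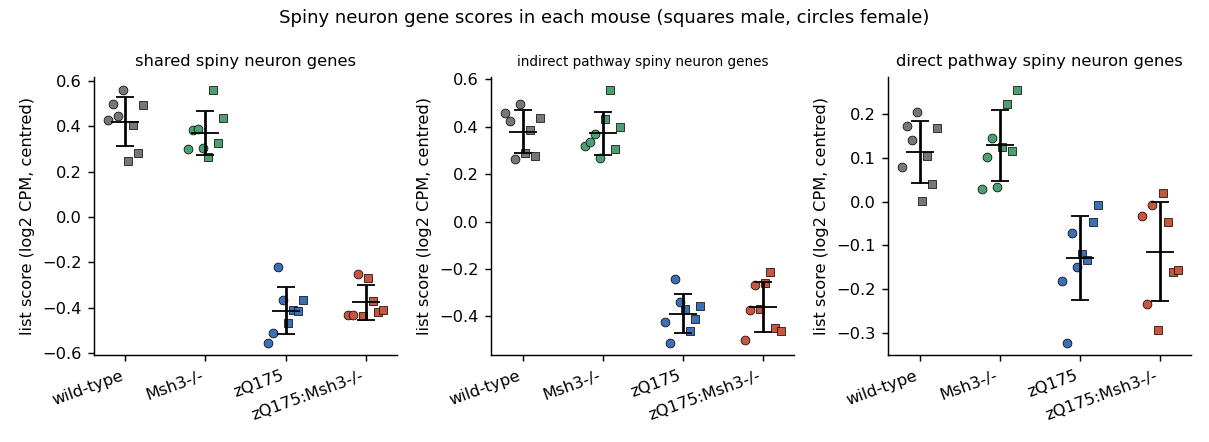
Score (mean centred log2 CPM, vertical axes) of the shared, indirect pathway and direct pathway spiny neuron genes in each of the 32 mice by genotype, with bars for mean ± SD. In the shared and indirect pathway lists both knock-in groups lie below all wild-type and Msh3-/- mice and overlap each other.

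Penk ran from 387.9 to 507.1 CPM in zQ175 mice (median 454.2) and from 391.0 to 497.8 CPM in zQ175:Msh3-/- mice (median 424.8), below the lowest wild-type mouse at 993.7 CPM. Its log2 difference between the knock-in groups was -0.045 (SE 0.055). Drd2 differed by -0.013 (SE 0.067), Adora2a, the adenosine receptor of indirect pathway cells, by 0.070 (SE 0.052), Drd1 by 0.076 (SE 0.062) and Tac1 by -0.039 (SE 0.053). Among the shared genes, the phosphodiesterase Pde10a differed by 0.088 (SE 0.066), the dopamine signalling protein Ppp1r1b by 0.0025 (SE 0.065) and the cannabinoid receptor Cnr1 by 0.056 (SE 0.089). These 8 genes were all held within 1.2-fold by the equivalence test. Ddit4l, an inhibitor of mTOR signalling, was at 4.72 to 6.30 CPM in zQ175 mice and 5.60 to 7.64 CPM in zQ175:Msh3-/- mice, against 19.1 to 28.8 CPM in wild-type mice. Its log2 difference of 0.20 (SE 0.089) had an edgeR unadjusted p of 0.0281 and an adjusted p of 0.999, beside a log2 difference of -2.08 between zQ175 and wild-type mice.

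Htt itself was at 128.8 to 147.4 CPM in zQ175 mice (median 137.3) and 131.8 to 157.2 CPM in zQ175:Msh3-/- mice (median 149.2). The groups overlapped, and the log2 difference of 0.12 (SE 0.039, edgeR unadjusted p = 0.00485, adjusted p = 0.999) was held within 1.2-fold. The 21 huntingtin and partner genes as a list differed by -0.00070 (95% interval -0.029 to 0.027).

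Coordinated small shifts were sought in 47 lists of genes, of which 46 had at least 3 tested members (the Hox genes had 0). The interval of the list difference held 0 in 42 of the 46. It excluded a common change of 1.2-fold or more in 41 lists, and of 1.1-fold or more in 32. Counts of members are read beside the 51.7% of all genes that were above 0 and the 48.3% below, and beside the 2% and 1.69% at an unadjusted p under 0.05 in each direction. Since no p is given for a list, and 46 were looked at, an interval that leaves out 0 describes these mice and is not a call.

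**Figure D4:**
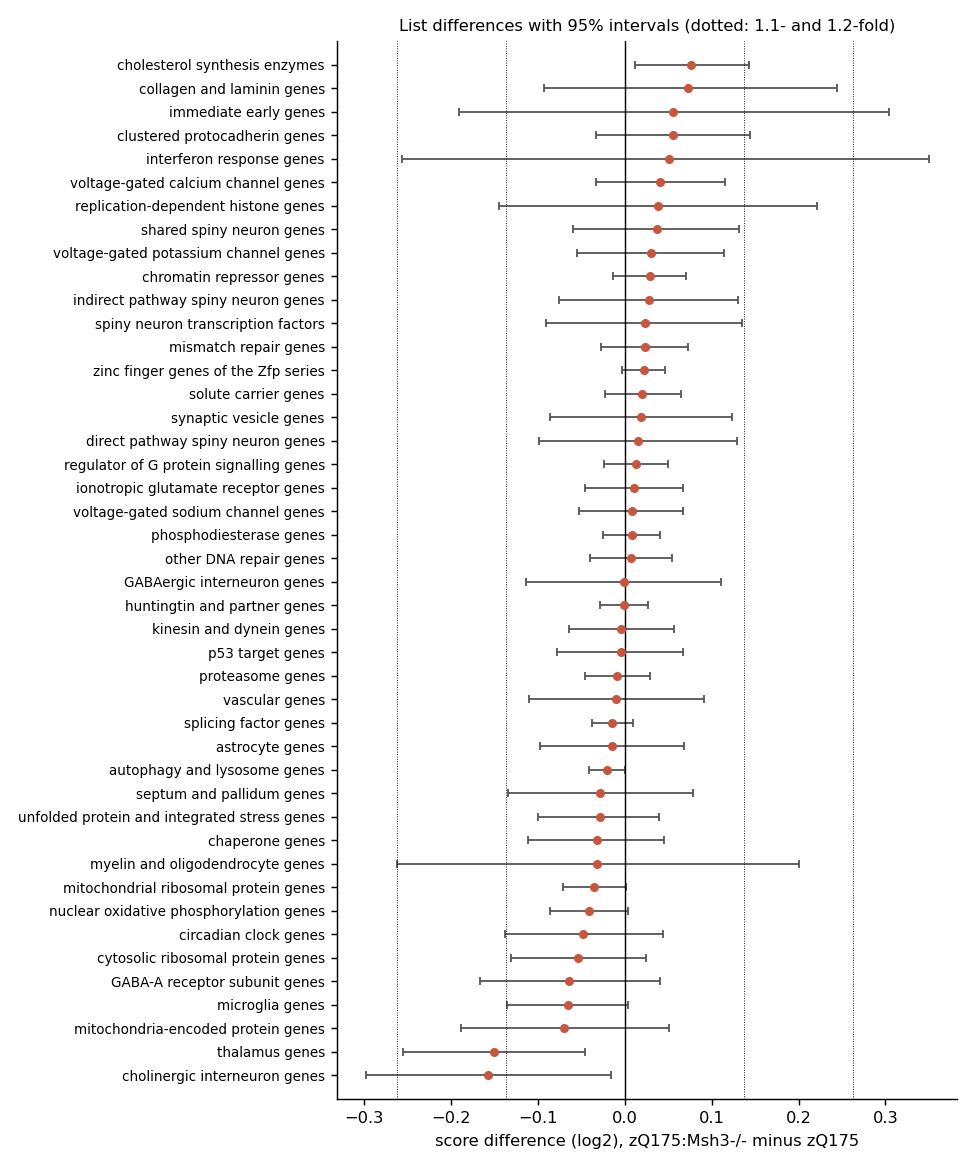
Difference in list score on the log2 scale (horizontal axis, zQ175:Msh3-/- minus zQ175) with 95% intervals for 44 lists, sorted by difference. The ependyma and choroid plexus list and the cerebral cortex list are left out because their intervals are far wider, and the other points lie between -0.16 and 0.08.

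Genes of sterol synthesis were higher as a group. Of 25 cholesterol synthesis enzymes and their regulators, 23 were above 0 and 7 were at an unadjusted p under 0.05, all higher, with a median log2 fold change of 0.067. The score ran from -0.11 to 0.035 in zQ175 mice (median -0.042) and from -0.057 to 0.17 in zQ175:Msh3-/- mice (median 0.022), and 7 of 8 zQ175:Msh3-/- mice were above the zQ175 median. The difference was 0.076 (95% interval 0.011 to 0.14), or 5.43%. Msh3-/- against wild-type mice, which are different animals, gave 0.077 (0.0044 to 0.14). Insig1, which holds the sterol sensor in the endoplasmic reticulum, was at 45.0 to 60.8 CPM against 49.8 to 78.6 CPM, a log2 difference of 0.19 (SE 0.077, edgeR unadjusted p = 0.0178, adjusted p = 0.999). Hmgcs1, which makes the precursor of mevalonate, differed by 0.12 (SE 0.057), and Srebf2, the transcription factor of the pathway, by 0.031 (SE 0.035). The difference was 0.11 in males alone and 0.027 in females alone.

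Most genes of the ribosome and of respiration were below 0, but the intervals of all 3 lists held 0. Of 81 cytosolic ribosomal protein genes tested, 78 were below 0 and 10 were at an unadjusted p under 0.05, all lower. Their score differed by -0.054 (95% interval -0.13 to 0.024), or 3.68% lower, and the median member by -0.055. Of 82 nuclear genes of oxidative phosphorylation, 74 were below 0, and 12 lower and 1 higher were at an unadjusted p under 0.05, for a score difference of -0.041 (-0.086 to 0.0033). Of 78 mitochondrial ribosomal protein genes, 63 were below 0 and 12 were at an unadjusted p under 0.05, all lower, for a score difference of -0.036 (-0.071 to 0.00089). All 8 zQ175:Msh3-/- mice were below the zQ175 median in the last 2 lists, and 7 of 8 in the first. In males and females alone the cytosolic ribosomal list differed by -0.085 and -0.021, the mitochondrial ribosomal list by -0.055 and -0.0059, and the respiratory list by -0.042 and -0.037. On log2(TPM + 0.1) the respiratory list differed by -0.015. Ndufb2, a subunit of complex I, was at 41.3 to 48.5 CPM in zQ175 mice and 38.5 to 45.8 CPM in zQ175:Msh3-/- mice, a log2 difference of -0.14 (SE 0.042). Mrps36 differed by -0.16 (SE 0.049), Rps28 by -0.12 (SE 0.047) and Rpl13a by -0.093 (SE 0.040). Reads of ribosomal protein genes can be split with their processed pseudogenes. In Msh3-/- against wild-type mice the same 3 lists differed by 0.019, 0.020 and 0.0030, each with an interval that held 0.

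Transcript length moved with these lists. Among genes at 5 CPM or more outside the 3 lists, the shortest 2891 genes, split into 4 bins by length (204 to 3187 bases of exon), had 56.5% of genes below 0 and a median log2 fold change of -0.0086, and the longest bin had 42.8% below 0 and a median of 0.0080. In Msh3-/- against wild-type mice the order was the opposite, with medians of 0.017 in the shortest bin and -0.022 in the longest. The median exon length was 1781 bases for the cytosolic ribosomal list and 1578 bases for the respiratory list. Other genes within the 10th to 90th percentile of the cytosolic ribosomal lengths had 55.5% below 0, against 96.3% of the ribosomal genes. The part of length in the list differences was not tested.

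**Figure D5:**
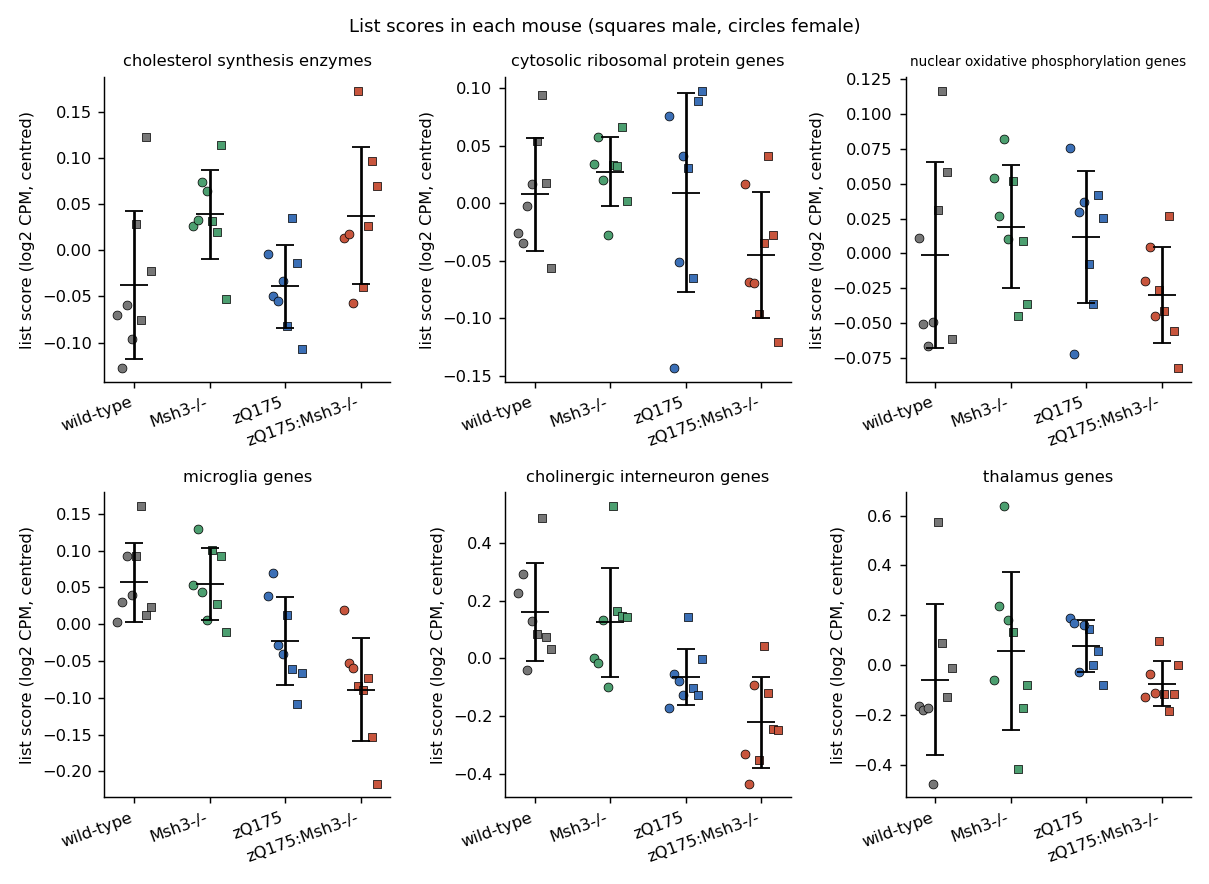
Scores (mean centred log2 CPM, vertical axes with their own ranges) of 6 lists in each of the 32 mice by genotype, with squares for males, circles for females and bars for mean ± SD. The knock-in groups overlap in every list, and the mean of zQ175:Msh3-/- mice is higher in the cholesterol list and lower in the other 5.

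Among the cell type lists, that of cholinergic interneurons had an interval below 0, and that of microglia had most genes below 0 but an interval that held 0. In bulk tissue, fewer cells of a type and less RNA per cell cannot be told apart. Of 19 microglia genes, 16 were below 0 and 4 were at an unadjusted p under 0.05, all lower (Trem2, C1qc, Gpr34 and Tyrobp, named after their values were seen). The score difference was -0.066 (95% interval -0.14 to 0.0035), with 7 of 8 zQ175:Msh3-/- mice below the zQ175 median. Without the knock-in, Msh3-/- against wild-type mice gave -0.0016 (-0.058 to 0.053) for the microglia list. Trem2, a lipid receptor of microglia, was at 14.5 to 16.9 CPM in zQ175 mice and 12.2 to 15.9 CPM in zQ175:Msh3-/- mice, a log2 difference of -0.18 (SE 0.057, edgeR unadjusted p = 0.00284, adjusted p = 0.999). All 8 cholinergic interneuron genes were below 0, from -0.46 to -0.0063 with a median of -0.11, and 2 were at an unadjusted p under 0.05. Their score difference was -0.16 (-0.30 to -0.016), with 6 of 8 zQ175:Msh3-/- mice below the zQ175 median, and zQ175 mice were 0.23 below wild-type mice. In Msh3-/- against wild-type mice the list differed by -0.036 (-0.22 to 0.16). Of its members, Gbx2 is also on the thalamus list and Lhx8 on the septum and pallidum list, so these lists are not separate. Slc5a7, the choline transporter, was at 32.8 to 40.4 CPM against 29.6 to 38.5 CPM (log2 difference -0.13, SE 0.059), and Chat, which makes acetylcholine, differed by -0.087 (SE 0.070).

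Markers of ependyma, choroid plexus and cerebral cortex varied widely between mice of one group. The ependyma and choroid plexus score had an SD of 1.02 in zQ175 mice and 1.26 in zQ175:Msh3-/- mice, and Ttr, a highly expressed transcript of the choroid plexus, ran from 28.5 to 1675 CPM and from 22.2 to 2723 CPM. The cerebral cortex score had an SD of 0.55 in both groups, and its difference of 0.18 had an interval from -0.40 to 0.78. Of the 18 cortex genes 17 were above 0, as were all 14 ependyma and choroid plexus genes. In these 2 lists alone the interval reached past 1.5-fold. The ependyma and choroid plexus difference of 0.12 turned to -0.27 without zQ175:Msh3-/- M4 and was 0.43 without zQ175 M3, and the cortex difference was -0.0015 without zQ175 M4. Their part in the other list differences was not tested. The thalamus list differed by -0.15 (95% interval -0.26 to -0.046), all 8 zQ175:Msh3-/- mice were below the zQ175 median, with 6 of 14 genes above 0 and 1 at an unadjusted p under 0.05, Tcf7l2 (log2 difference -0.27, SE 0.13). The difference was -0.039 when only genes with at least 10 counts in every mouse were kept. Shox2 does not pass that filter, which acts on every member of the list, and the part of Shox2 in the change was not tested. The thalamus difference was -0.095 in males and -0.21 in females alone, and Msh3-/- against wild-type mice gave 0.12 (-0.21 to 0.44). The septum and pallidum list differed by -0.029 (-0.13 to 0.078).

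Shox2, a homeobox gene, was the largest difference on the thalamus list and was followed because earlier results of these data had named it. It ran from 0.98 to 2.36 CPM in zQ175 mice (median 1.86) and from 0.46 to 1.1 CPM in zQ175:Msh3-/- mice (median 0.74). The ranges overlapped between 0.98 and 1.1 CPM, with 1 zQ175 mouse and 2 zQ175:Msh3-/- mice in that stretch. Wild-type mice ran from 0 to 2.89 CPM with a median of 0.17, and Msh3-/- mice from 0 to 2.53 CPM with a median of 0.21. The log2 difference between the knock-in groups was -1.19 (SE 0.59, 95% interval -2.40 to 0.027), with an edgeR unadjusted p of 0.0547 and an adjusted p of 0.999 in the model of 4 genotypes. With only the 2 knock-in groups in the model, edgeR gave an adjusted p of 0.0561 and DESeq2 0.00222 on the same genes. Whether Shox2 is called therefore depends on the test and on which mice set its spread.

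Repair and damage genes differed little. The 23 mismatch repair genes other than Msh3 differed by 0.023 (95% interval -0.027 to 0.073), with 13 above 0 and 1, Rpa2, at an unadjusted p under 0.05 (log2 difference 0.12, SE 0.057). The 26 p53 target genes differed by -0.00445 (-0.078 to 0.067), with 0 at an unadjusted p under 0.05 in edgeR, and the 35 other DNA repair genes by 0.0066 (-0.041 to 0.054). In that list Ung, which removes uracil from DNA, had the smallest p (log2 difference 0.31, SE 0.11, unadjusted p = 0.00767).

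Stress and protein turnover lists moved by a few percent or less. Autophagy and lysosome genes were 1.43% lower (95% interval 0.019% to 2.86% lower), the narrowest of the 4 intervals that left out 0. On log2(TPM + 0.1) the difference was -2.22e-06 and on log2(TPM + 1) 0.00045, and Msh3-/- against wild-type mice gave 0.014 (-0.010 to 0.038). Chaperone genes differed by -0.032 (-0.11 to 0.045), unfolded protein and integrated stress genes by -0.029 (-0.10 to 0.039) and proteasome genes by -0.0087 (-0.046 to 0.029). Interferon response genes differed by 0.050 with a wide interval (-0.26 to 0.35), a difference that was -0.025 without zQ175:Msh3-/- M4. Mitochondria-encoded genes differed by -0.070 (-0.19 to 0.051), with 12 of 13 below 0.

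Of chromatin and RNA lists, the clustered protocadherins, neuronal adhesion genes that share exons and reads within a cluster, were above 0 in 47 of 56 and differed by 0.055 (-0.033 to 0.14). In Msh3-/- against wild-type mice 19 were above 0 and 37 below, with a difference of -0.023 (-0.083 to 0.036). The Zfp zinc finger genes, tested in 360 members, differed by 0.022 (-0.0029 to 0.046), with 13 higher and 1 lower at an unadjusted p under 0.05. Without the knock-in, 155 Zfp genes were above 0 and 205 below, with a difference of -0.014 (-0.051 to 0.023). Chromatin repressor genes differed by 0.029 (-0.013 to 0.071), splicing factor genes by -0.014 (-0.038 to 0.0093) and the replication-dependent histone genes by 0.039 (-0.15 to 0.22). For neurons, the spiny neuron transcription factors differed by 0.024 (-0.091 to 0.14), GABAergic interneuron genes by -0.00069 (-0.11 to 0.11), synaptic vesicle genes by 0.019 (-0.086 to 0.12) and immediate early genes by 0.056 (-0.19 to 0.30). The last list was 0.32 higher in males alone and 0.31 lower in females alone, a contrast that was not tested. The lists of receptor and ion channel subunits, phosphodiesterases and regulators of G protein signalling had differences between -0.064 and 0.041. Of voltage-gated calcium channel genes 20 of 24 were above 0, and of voltage-gated potassium channel genes 27 of 36, against 7 of 14 GABA-A receptor genes. The intervals of these lists held 0. Myelin genes differed by -0.032 (-0.26 to 0.20), astrocyte genes by -0.015 (-0.098 to 0.068), vascular genes by -0.011 (-0.11 to 0.092), clock genes by -0.048 (-0.14 to 0.044), kinesin and dynein genes by -0.0041 (-0.065 to 0.057), collagen and laminin genes by 0.073 (-0.093 to 0.24) and solute carriers by 0.019 (-0.023 to 0.065). Without zQ175:Msh3-/- M4 the collagen and laminin difference was 0.016, and without zQ175 M3 it was 0.12.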

How the data were processed

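The authors deposited gene counts for 32 striatal libraries (paired-end NovaSeq reads, GRCm38.p6 per the submitters' notes) and a second table of TPM values (deposited under the name FPKM, each library summing to 1000000). The aligner, the counter and its strand setting are not given in the sources used here. Symbols, coordinates and exon lengths came from GENCODE M21. Counts were tested with edgeR 4.0.16 (TMM factors, filterByExpr, robust quasi-likelihood fit of 4 genotypes, Benjamini-Hochberg adjustment), which left 16610 genes. A call needed an adjusted p under 0.05 and a 1.2-fold change. Standard errors came from quasi-likelihood tests of a shifted null and were tested on simulated counts. List scores used log2 CPM with a prior count of 2, and their 95% intervals came from all 12870 arrangements of the 16 mice. Alternatives used DESeq2 1.42.0, limma 3.58.1 on counts and on log2(TPM + 0.1), other scalings, filters and subsets of mice. Named genes were Msh3, its neighbours, calls, the 6 smallest p each way, fixed spiny neuron genes, and per list the 2 most abundant members and the smallest p. The comparison, lists and named genes were chosen with earlier results of these data known. Counting error and animal spread are both in the intervals. Not every gene picked is reported. The strand setting matters for overlapping and antisense genes, and whether their reads were kept apart is not known.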

Additional observations from a re-analysis of the deposited data

Results flagged for a closer look

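Each group of 8 mice was examined for a single mouse far from the other 7, over the genes and lists described above. Of 188 sets of 8 values, 14 held such a mouse. About 1 in 20, or 9.4, would by chance if values were normally distributed. Some genes are skewed, and the sets share mice and genes, so 9.4 is only a rough guide. The number given for each mouse is the gap to the nearest mouse divided by the whole range. Among the genes, zQ175 F1 was low in Csnk1g1 (0.527), at 35.8 CPM against 39.8 to 43.8 CPM in the others. zQ175 M4 was low in Gm49012 (0.589) and in Slc17a7 (0.795), the vesicular glutamate transporter of the cortex, at 25.5 CPM against 178.2 to 294.1 CPM. zQ175:Msh3-/- M2 was low in Gngt2 (0.747), at 0.550 CPM against at most 1.55 CPM in the others, and zQ175:Msh3-/- F3 was low in Tcf7l2 (0.541). zQ175 M3 was high in Rpa2 (0.628) and in Ttr (0.616), at 1675 CPM against 28.5 to 136.7 CPM.

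Among the lists, zQ175 M3 was high in the ependyma and choroid plexus score (0.536) and the solute carrier score (0.561), and zQ175 M4 was low in the cerebral cortex score (0.615). zQ175 F2 was high in the interferon response score (0.719), at 0.53 against -0.24 to -0.021 in the others, and low in the mitochondrial ribosomal score (0.570). zQ175:Msh3-/- M4 was high in the collagen and laminin score (0.633) and the solute carrier score (0.669).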

How the results depend on the processing

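Msh3 was called under every alternative run. The count of called genes was 1 under every alternative except DESeq2 on the 2 knock-in groups, chosen after seeing the data, which called 3 (Msh3, Shox2 and Fam181b) with the filter on low counts and 2 without it. Genes at an unadjusted p under 0.05 numbered 1330 with no filter, 955 and 984 by limma on log2(TPM + 0.1) and log2(TPM + 1), and 1459 on TPM with no filter, where more genes were tested. They ranged from 452 to 824 with 1 mouse left out. Genes within 1.5-fold ranged from 14653 to 14810 with 1 mouse left out, but their share of genes tested was 44.0% with no filter, 66.9% on log2(TPM + 0.1), 80.7% in males, 76.8% in females and 97.7% at 10 counts in every mouse. Replicate numbers did not pair the mice (correlations of same-numbered mice from -0.34 to 0.35), and the fit with a replicate block called 1 gene, 560 genes at an unadjusted p under 0.05 and Msh3 at -0.90 on the log2 scale. On TPM, Msh3 was at -0.57 and -0.54. List values under alternatives were set against 1 SD of the score between mice of 1 group. That SD was wider than most list differences, so a value could change sign and still stay within it. Mitochondria-encoded genes went from -0.070 to 0.026 in females alone, and direct pathway genes from 0.015 to -0.051 in males alone. Of 1380 list values, 1367 stayed within 1 SD of the main value, which does not show that a list difference held. The others, whose cause was not tested, were immediate early genes in males (0.32) and females (-0.31) alone, mismatch repair genes on TPM (0.074 with and without the filter), the thalamus list at 10 counts in every mouse (-0.039), autophagy genes on TPM (-2.22e-06 with a pseudocount of 0.1, filtered or not, and 0.00045 with 1), regulators of G protein signalling by the median of members (-0.041), and, in females alone, p53 targets (-0.078), huntingtin partners (0.026), proteasome genes (0.030) and sodium channels (0.071). Shox2 was at -1.19 on the log2 scale in the DESeq2 fits that called it. Low counts set the limits for genes under 1 CPM.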
